A study of Mus musculus with 6 samples.

Results

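Caspases are the proteases that carry out programmed cell death, and the 8 genes described here are 5 caspases and 3 proteins that act on caspases directly. The set held Casp1, Casp2, Casp6, Casp8, Casp9, Apaf1, Xiap and Cflar, and its members were every non-control probe on the array that carried one of these names. They came to 11 of 55681 probes, and to 8 of 34821 gene names. Each gene but Cflar had 1 probe, and Cflar had 4. Of the 11 probes, 10 were tested, at least 1 for each gene. The whole array gave 18785 tested probes from 14164 genes. A probe was tested where it stood well above the local background on all 3 arrays of at least 1 genotype.

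Initiator caspases are activated on protein platforms. Casp9 is activated on the apoptosome, a ring of Apaf1 molecules that forms when cytochrome c leaves the mitochondrion. Casp8 is activated at death receptors, and Cflar (c-FLIP), a relative of Casp8, controls that step. Casp2 is activated on the PIDDosome and Casp1 on inflammasomes, where it matures interleukin-1β. Casp6 is an effector caspase, cut by other caspases and known for cleaving lamins. Xiap binds and blocks Casp9 and effector caspases. In erythroblasts, death-receptor signalling limits the number of maturing cells, and caspase activity without death has a part in terminal maturation.

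The arrays compared BM erythroblasts of P38α+/- and P38α-/- mice on the C57Bl/6 background. Both genotypes carried Mx1-Cre, with 1 floxed P38α allele (fl/+) in P38α+/- and both floxed (fl/fl) in P38α-/-, so the controls also lost 1 allele. Mx1-Cre is driven by an interferon-inducible promoter and acts in hematopoietic and other interferon-responsive cells, not in erythroblasts alone. Mice of both groups were 6 to 8 weeks old when they received 3 injections of PolyIC (300 µg each), rested for 6 weeks, and were then made anemic by 1 injection of PHZ, a red cell lysing agent, at 100 mg per kg. On day 4 of recovery CD71highTer119+ cells were sorted from 3 mice of each genotype, and 10 ng of RNA per mouse was amplified with Cy3 labelling for 1 Agilent microarray of the whole mouse genome, so each array stands for 1 mouse. Below, the 3 P38α+/- arrays are called the controls. Values are log2 signals minus the array's own 75th percentile, taken over 15540 probes that stood well above background on every array, so a value of 0 is the signal at that percentile. Levels of different probes are not comparable on this scale, and only differences between genotypes are.

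The share of probes that stood well above background was 53.1% on P38α+/- replicate 1 and lay between 28.9% and 38.2% on the other 5 arrays. Mapk14, which encodes P38α, was the check of the labels, and it was not lower on the arrays labelled P38α-/-. Its brighter probe read 0.33, 0.58 and 0.61 on the controls and 0.76, 1.19 and 1.20 on the arrays labelled P38α-/-, a log2 difference of 0.54 (standard error, SE, 0.19). Its adjusted p was 0.186 by limma, with Benjamini-Hochberg adjustment over all tested probes here and below. The dimmer probe differed by 0.01 (SE 0.42). The sources used here do not say which part of the transcript the deletion removes, so these probes may lie outside it. By genomic PCR and immunoblotting, the authors report excision of the P38α locus and complete loss of its protein in erythroblasts of P38α-/- mice. Taken over every tested probe, the median difference between the genotypes was −0.16, so differences are also given relative to that median probe. The 8 erythroid markers with a probe, transferrin receptor, glycophorin A, band 3, Klf1, Gata1, Hba-a1, Alas2 and Epor, were well above background on all 6 arrays. Their mean was 4.65 ± 0.16 on the controls and 4.67 ± 0.19 on the arrays labelled P38α-/- (SD, n = 3 each). By estimate 3 were higher and 5 lower on this scaling. All 8 were higher with the percentile taken over all probes (median difference 0.48) or with centring on a spiked control RNA (0.35). Relative to the median probe 7 lay above and 1 below on this scaling, but 3 and 5 with quantile normalization.

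The results turned most on Casp1 and Cflar, and the probe sequences are given because the 4 Cflar probes read separate stretches of 1 gene. The first 30 of the 60 bases of each probe are shown 5′ to 3′, as the array files give them, on the plus strand of mm9. Cflar probes are numbered from the brightest to the dimmest.
Casp1 (chromosome 9, 5307206 to 5307265): ctatgctgagaatcgtgccaataagaagcc
Cflar probe 1 (chromosome 1, 58770546 to 58770605): gggacttgggaagttggagagctgactcct
Cflar probe 2 (chromosome 1, 58789994 to 58790053): ctttcttgctgatgtataaattgcctcctt
Cflar probe 3 (chromosome 1, 58811116 to 58811175): gatttgacactgaatgtaacttgagactta
Cflar probe 4 (chromosome 1, 58810660 to 58810719): tcatggacaaagtgtatgcgtggaacagtg
The 4 Cflar probes span 40.6 kb, and none overlaps another. In the array annotation probe 1 names an Ensembl transcript alone, ENSMUST00000149874, while probes 2, 3 and 4 name the RefSeq transcripts NM_009805, NM_207653 and NM_207653. Exon and UTR positions were not used here, since no annotation of mm9 was at hand. The Casp8 probe lies 90.4 kb beyond the last Cflar probe on the same chromosome.

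No caspase, Apaf1, Xiap or Cflar probe passed as different between the genotypes, where passing means an adjusted p up to 0.05 by limma and a change of 2-fold or more. Over the whole array 28 probes did, which is 0.149% of those tested. The count of member probes was also 0 with a fold of 1.5 and with no minimum fold. At an unadjusted p of at most 0.05 by limma, 4 of the 10 tested member probes were lower on the arrays labelled P38α-/-, 1 of Casp1 and 3 of Cflar, against 16.4% of all tested probes. No member probe was higher at that level, against 4.5% of all tested probes. Cflar probes 2 and 3 were tested only because all 3 controls cleared the background, so the filter favoured lower values there. With background cleared on all 6 arrays, probe 1 was the only Cflar probe left. The methods' t-test, unpaired and with equal variance, left 2 member probes at an unadjusted p of at most 0.05, those of Casp9 and of Cflar probe 1, and 0 after adjustment. The median log2 difference of the 10 member probes was −0.49, with 3 higher and 7 lower, beside −0.16 for all tested probes. Cflar supplies 3 of these 10 probes. The split moved to 5 and 5 with the percentile of all probes and to 4 and 6 with quantile normalization or with centring on E1A, the spiked control RNA. Relative to the median probe it was 3 above and 7 below under each of the 6 scalings run. The main scaling, the percentile of all probes and the E1A centring differ by a constant per array. Their agreement relative to the median probe is therefore fixed and adds no support. Genotypes did not overlap for 1 member probe that was higher on the arrays labelled P38α-/-, that of Casp9, where 6.93% of all tested probes behaved so. They did not overlap for 4 that were lower, those of Casp1 and Xiap and 2 of Cflar (probes 1 and 2), where 20.8% of all tested probes behaved so. The limit that the filter sets on Cflar probe 2 holds here too.

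**Figure D1:**
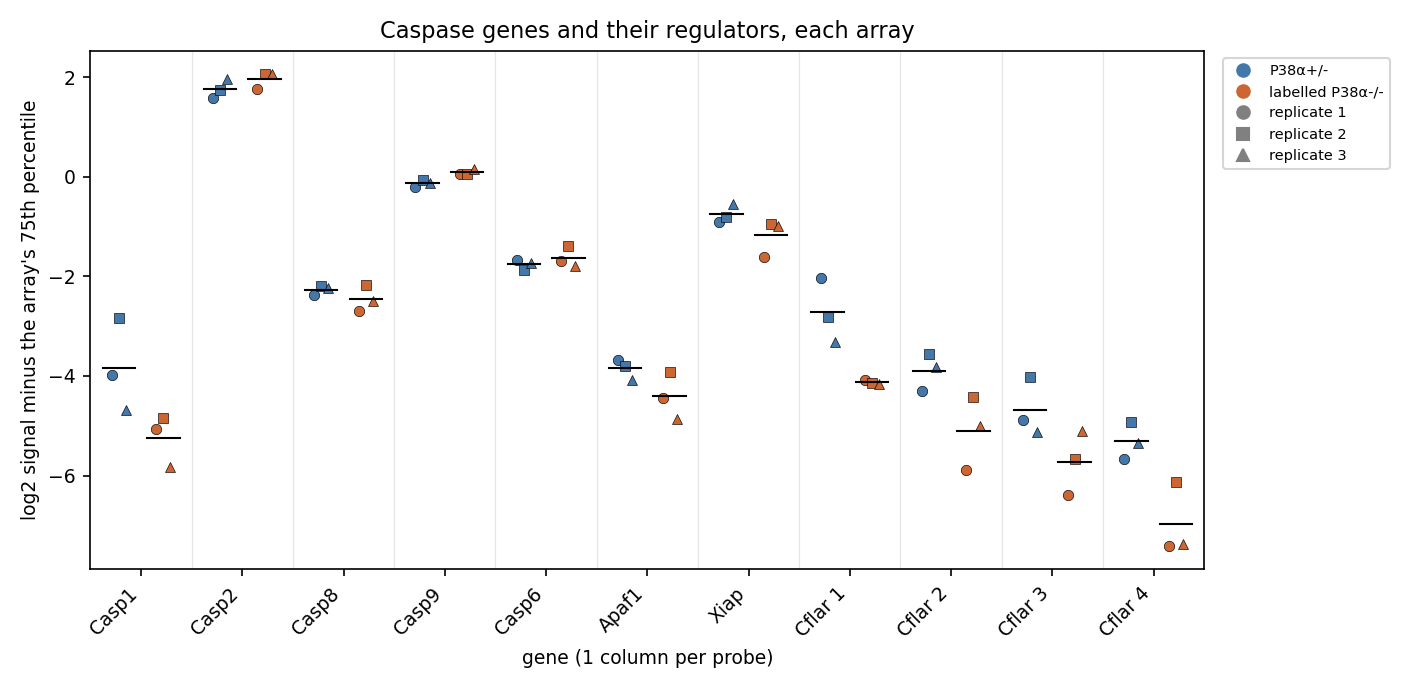
Log2 signal minus the array's 75th percentile (vertical axis) for each of the 11 probes (horizontal axis), with 1 point per array, blue for P38α+/- and orange for the arrays labelled P38α-/-, symbols for the replicate number and black lines for the genotype mean. Casp1 and the Cflar probes lie lower in orange, while Casp2, Casp8, Casp9 and Casp6 stay within 0.22 of the control mean, and heights of different probes are not comparable.

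Casp9, the initiator caspase of the mitochondrial pathway, was the one member with its arrays apart and higher. Its probe (chromosome 4, 141371773 to 141371832) read −0.21, −0.06 and −0.12 on control arrays 1, 2 and 3, and 0.06, 0.06 and 0.15 on the arrays labelled P38α-/-. The 3 highest values were those of the arrays labelled P38α-/-, but the whole step was small, a ratio of 1.16. It differed by 0.22 in log2 (SE 0.14, 95% interval −0.11 to 0.55, adjusted p = 0.406 by limma), or 0.38 above the median probe.

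Apaf1, which forms the apoptosome that activates Casp9, had a negative estimate. The probe on chromosome 10 (90452580 to 90452639) read −3.67, −3.80 and −4.07 on the controls and −4.43, −3.92 and −4.87 on the arrays labelled P38α-/-. Replicate 2 of the latter lay inside the control range, so the genotypes overlapped as groups. In log2 the difference was −0.56 (SE 0.27, 95% interval −1.22 to 0.09, adjusted p = 0.293 by limma). Between arrays of the same replicate number it was −0.76, −0.12 and −0.80, lower in all 3 (adjusted p = 0.165 by limma with that number as a block). The size rested on the scaling, with −0.079 under the percentile of all probes, −0.070 under quantile normalization and −0.13 with the authors' values, and it was −0.32 without replicate 3 of the arrays labelled P38α-/-.

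Casp2 is the caspase of the PIDDosome and is linked to errors in cell division. Its probe (chromosome 6, 42232367 to 42232426) read 1.59, 1.74 and 1.96 on the controls and 1.77, 2.06 and 2.06 on the arrays labelled P38α-/-. The highest control array lay above the lowest of the other genotype. On the log2 scale the difference was 0.20 (95% interval −0.22 to 0.62, adjusted p = 0.556 by limma).

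Casp8, the initiator caspase of death receptors, stood at the median probe. It was read on chromosome 1 (58901601 to 58901660) at −2.37, −2.20 and −2.24 on the controls and at −2.69, −2.17 and −2.49 on the arrays labelled P38α-/-. Replicate 2 of the latter was the highest of the 6 arrays and replicate 1 the lowest. Its log2 difference was −0.18 (95% interval −0.61 to 0.26, adjusted p = 0.626 by limma), which is −0.02 relative to the median probe. Its sign turned with the scaling, to 0.31 with the percentile of all probes, 0.012 with quantile normalization and 0.17 with the E1A spots.

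Casp6 is the only effector caspase in the set. The probe on chromosome 3 (129616453 to 129616512) read −1.67, −1.87 and −1.74 on the controls and −1.70, −1.39 and −1.80 on the arrays labelled P38α-/-. Replicate 2 of the latter was above all other arrays, and the other 2 were among the controls. A log2 difference of 0.13 resulted (95% interval −0.28 to 0.54, adjusted p = 0.706 by limma). On this scaling the intervals of Casp2, Casp6, Casp8 and Casp9 leave out a 2-fold change in either direction. They do not all do so with the percentile of all probes, where Casp2 differed by 0.68, Casp6 by 0.61 and Casp9 by 0.70 and the upper bounds passed 1, nor with the E1A centring.

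**Figure D2:**
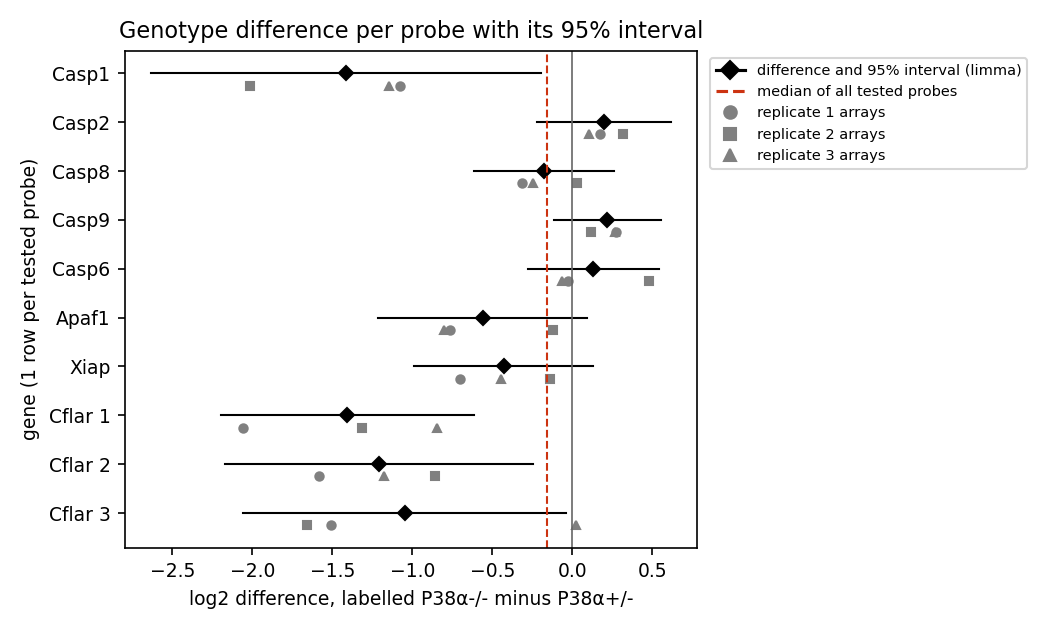
Log2 difference of the arrays labelled P38α-/- minus P38α+/- (horizontal axis) for the 10 tested probes (vertical axis), with diamonds for the limma estimate, lines for its 95% interval, grey symbols for the difference between arrays of the same replicate number, and a dashed line at the median of all tested probes, −0.16. The intervals of Casp1 and of the 3 tested Cflar probes lie below 0 on this scaling, though none of the 10 passed after adjustment, and with quantile normalization or the authors' values only that of Cflar probe 1 does.

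Casp1, the inflammasome caspase, had the most negative estimate of the 5 caspases. Its probe read −3.99, −2.83 and −4.68 on the controls and −5.07, −4.85 and −5.83 on the arrays labelled P38α-/-, and was well above background on all 6. All 3 arrays of the latter lay below all 3 controls, although the gap between the nearest arrays was narrow beside the spread of the controls (SD 0.94 against 0.52). Its mean differed by −1.41 in log2 (SE 0.51, 95% interval −2.63 to −0.19, adjusted p = 0.195 by limma), a signal 2.66-fold lower. Between arrays of the same replicate number the differences were −1.08, −2.02 and −1.15, and with that number as a block the adjusted p was 0.0772 by limma. Without P38α+/- replicate 2, the brightest array for Casp1, the log2 difference was −0.91. It was −0.77 with quantile normalization, −0.71 with the authors' values and −0.61 with normexp background, and the intervals of these then held 0.

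Xiap blocks Casp9 and effector caspases. Its probe (chromosome X, 39462720 to 39462779) read −0.91, −0.80 and −0.54 on the controls and −1.61, −0.94 and −0.98 on the arrays labelled P38α-/-. The arrays did not overlap, but the highest of the latter and the lowest control were close together, and replicate 1 carried most of the step. The log2 difference was −0.43 (SE 0.23, 95% interval −0.99 to 0.13, adjusted p = 0.340 by limma). Without replicate 1 of the arrays labelled P38α-/- it was −0.18, and with the percentile of all probes it turned to 0.053. Relative to the median probe it stayed below 0 under every alternative run, though the percentile of all probes and the E1A centring cannot change that value.

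Cflar, which governs Casp8 at death receptors, was lower at all 4 probes by estimate. Probe 1 read −2.02, −2.82 and −3.32 on the controls and −4.08, −4.14 and −4.16 on the arrays labelled P38α-/-. The latter lay close together and below every control, while the controls ranged widely. The log2 difference of probe 1 was −1.41 (SE 0.33, 95% interval −2.19 to −0.62, adjusted p = 0.113 by limma), a signal 2.65-fold lower. It was the smallest adjusted p of the set. Over the other scalings and the normexp background the difference of probe 1 ran from −1.15 to −0.84.

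Probe 2 read −4.29, −3.56 and −3.83 on the controls and −5.88, −4.42 and −5.01 on the arrays labelled P38α-/-. The genotypes were apart here too, with replicate 1 of the latter not well above background. Its mean difference was −1.21 (SE 0.40, 95% interval −2.17 to −0.25, adjusted p = 0.174 by limma). Probe 3 read −4.89, −4.02 and −5.13 against −6.39, −5.68 and −5.10, with replicate 1 of the arrays labelled P38α-/- again not well above background. Here replicate 3 of the arrays labelled P38α-/- lay just above its P38α+/- counterpart, so the genotypes overlapped. Its log2 difference was −1.05 (95% interval −2.06 to −0.04, adjusted p = 0.227 by limma). Both probes shrank with quantile normalization, the authors' values and the normexp background, probe 2 to −0.50, −0.53 and −0.45 and probe 3 to −0.20, −0.29 and −0.33. Probe 4 read −5.66, −4.93 and −5.36 against −7.41, −6.13 and −7.37. It cleared the background test on 2 of 3 controls and on 1 of 3 of the others, so it was not tested. Over the 6 arrays the correlation between Cflar probes ran from 0.58 to 0.94 (Pearson's r), as a description of probes that read the same 6 RNA samples.

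The members that act together were then set against each other on the same array, where any scaling constant of the array cancels, though a quantile normalization or another background correction does not. A lower value means less of the regulator for the same signal of its caspase, and the brightest probe of each gene was used. Apaf1 minus Casp9 was −3.46, −3.75 and −3.95 on the controls and −4.50, −3.98 and −5.02 on the arrays labelled P38α-/-. Every array of the latter was below every control, with replicate 2 nearest to them. The mean difference was −0.78, a ratio 1.72-fold lower. It was −0.31 with quantile normalization, −0.32 with the authors' values and −0.44 with normexp background, and the two-sided exact permutation p was then 0.6, 0.2 and 0.3, so the arrays no longer lay apart.

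Xiap minus Casp9 was −0.70, −0.74 and −0.42 on the controls and −1.67, −1.001 and −1.13 on the arrays labelled P38α-/-. The genotypes were again apart, and the difference of −0.65 makes the ratio 1.57-fold lower. Cflar minus Casp8 was 0.35, −0.62 and −1.08 on the controls and −1.40, −1.97 and −1.68 on the arrays labelled P38α-/-. This was the widest step of the 3 in log2 units, −1.23 or 2.35-fold, beside an SD of 0.73 in the controls and 0.29 in the others (n = 3 each). Only Cflar probe 1 entered it, and no ratio was made with the other Cflar probes. Without P38α+/- replicate 1 the difference was −0.83. With normexp background it was −0.71 and the arrays overlapped (two-sided exact permutation test, p = 0.2), while Xiap minus Casp9 kept p = 0.10 in the exact test under every scaling and background run. In each of the 3 pairs the two-sided exact permutation test gave p = 0.10, the smallest that 3 arrays against 3 allow, and 0.10 after adjustment over the 3 pairs. This design cannot pass 0.05 by that test, which took no account of the replicate number.

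**Figure D3:**
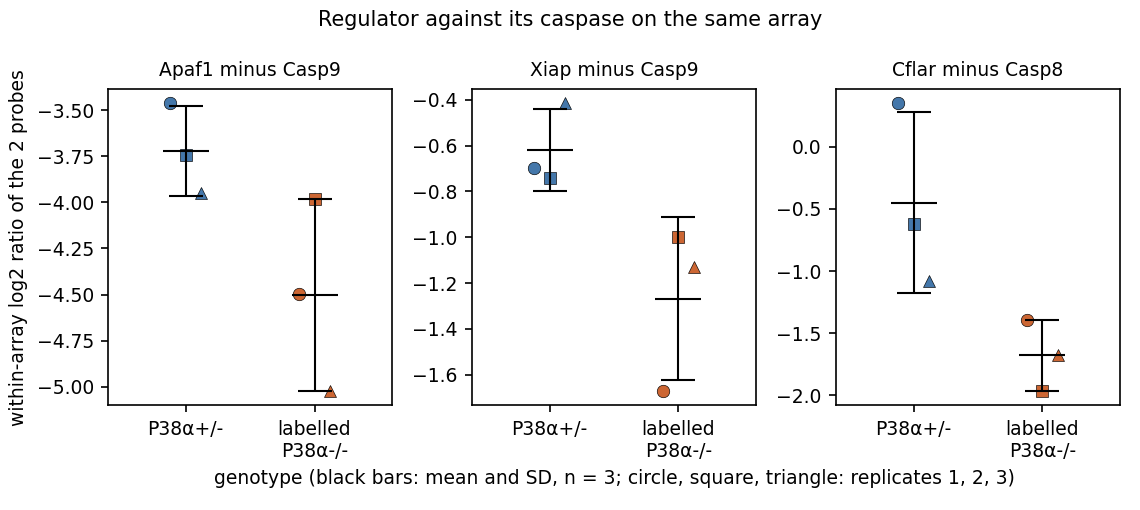
Within-array log2 ratio of the probes of Apaf1 and Casp9, Xiap and Casp9, and Cflar and Casp8 (vertical axes, each on its own scale) by genotype, with 1 symbol per array and black bars for the mean and SD of 3 arrays. In each panel all orange symbols lie below all blue ones, by 0.78, 0.65 and 1.23 in the mean, on the main scaling.

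Markers of neutrophils, monocytes or macrophages, B cells and T or NK cells were lower by estimate on the arrays labelled P38α-/-, as Casp1 and Cflar were. The mean of the 9 neutrophil markers (Mpo, Elane, Prtn3, Ltf, Camp, Ngp, S100a8, S100a9 and Lcn2) was 3.04, 3.94 and 2.17 on the controls and 1.82, 1.61 and 1.17 on the arrays labelled P38α-/-. All 9 were well above background on every array, all 9 were lower by estimate, 7 of them with no overlap, and 0 passed after adjustment by limma. Over the whole array 12589 of 18785 tested probes were lower by estimate, and 20.8% were lower with no overlap. The 9 were lower under all 6 scalings. P38α+/- replicate 2 was highest both for these markers and for Casp1, and replicate 3 lowest within each genotype for both. For Cflar probe 1 the controls fell in another order, with replicate 1 highest.

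Monocyte or macrophage markers averaged −4.11 ± 0.90 on the controls and −5.00 ± 0.93 on the arrays labelled P38α-/- (SD, n = 3), with 6 of 8 tested, all 6 lower by estimate (5 under the E1A centring and 4 under the percentile of all probes, quantile normalization and the authors' normalized values), and Mrc1 not well above background on any array. The mean of the B cell markers per array ran from −6.58 to −3.15 on the controls and from −7.36 to −6.11 on the others, and both of the tested B cell markers, of 6, were lower by estimate. That of the T or NK cell markers ran from −5.54 to −3.34 and from −5.92 to −4.78, with 3 of 6 tested and all 3 lower by estimate (2 under the percentile of all probes and the E1A centring). Among the tested markers Ms4a1, Adgre1, C1qa and Gzma cleared the background on all 3 controls, but on 0, 1, 2 and 2 of the others. They were tested only through the controls, so the filter favoured lower values for them. Markers of megakaryocytes or platelets differed in direction on this scaling, with Gp9 at 0.33, Itga2b at 0.22 and Pf4 at −1.42 by estimate, and Ppbp and Gp1bb were not well above background on any array. In sorted bulk RNA, fewer cells of a type and less RNA per cell cannot be told apart, and the part of these cells in the values of Casp1 and Cflar, and of Casp4, Il1b and Naip2 below, was not tested.

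**Figure D4:**
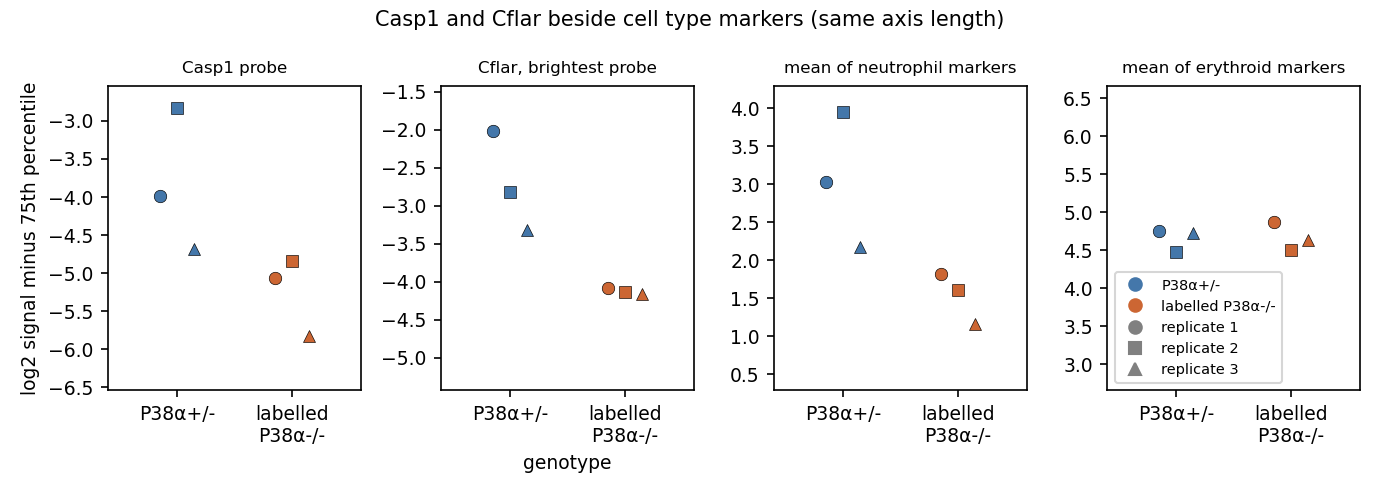
Log2 signal minus the array's 75th percentile for Casp1, Cflar probe 1 and the means of the neutrophil and erythroid markers (vertical axes of equal length) by genotype, 1 symbol per array. On the main scaling, Casp1, Cflar and the neutrophil mean are lower in all 3 arrays labelled P38α-/-, and the erythroid means of both genotypes lie between 4.47 and 4.87.

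The wider caspase pathway was read through 41 other genes in 6 groups, by the brightest tested probe of each. Of these, 33 were tested and 0 passed, with 12 higher and 21 lower by estimate, a split that turned to 24 and 9 with the percentile of all probes. Relative to the median probe it was 19 above and 14 below, or 13 and 20 with quantile normalization and with the authors' values. Their median difference was −0.09, beside −0.16 for all tested probes. The genotypes were apart and lower for 9, where 20.8% of all tested probes were, and apart and higher for 1, where 6.93% of all tested probes were. That gene was Htra2, a mitochondrial protease that binds IAP proteins, named after its value was seen (difference 0.11). Birc3 and Gsdme, among the 9 apart and lower, were tested only through the controls, so the filter favoured lower values for them. In each group the gene furthest from the median probe is named, among those well above background on all 6 arrays.

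Among the 5 other caspases, 3 were tested, with Casp4 furthest from the median probe. Casp4, an inflammatory caspase that senses lipopolysaccharide inside cells, lies 29.4 kb from the Casp1 probe. It read −3.33, −2.85 and −4.65 on the controls and −4.92, −5.14 and −5.91 on the arrays labelled P38α-/-. The genotypes did not overlap, and the log2 difference was −1.71 (SE 0.50, adjusted p = 0.152 by limma), or −0.74 with normexp background. Both inflammatory caspases had their lowest array in the same mouse, replicate 3 of the arrays labelled P38α-/-. That array was also the lowest for the neutrophil marker mean and for Il1b and Naip2 below, but not for the erythroid mean.

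Of the 12 caspase substrates, 11 were tested, 3 higher and 8 lower by estimate (6 and 5 with the percentile of all probes). The genotypes were apart and lower for 4, where 20.8% of all tested probes were. Gsdme, among the 4 and named after its value was seen, cleared the background on all 3 controls but on 2 of the others. The filter thus favoured a lower value for Gsdme. Il1b, the cytokine that Casp1 matures, was the furthest from the median probe. It read −2.64, −2.17 and −3.16 on the controls and −4.42, −4.46 and −5.82 on the arrays labelled P38α-/-. The log2 difference was −2.24 (SE 0.45, adjusted p = 0.0966 by limma), and it passed under 1 alternative, the percentile of all probes (adjusted p = 0.00781 by limma, in a range of 0.00781 to 1.00). With normexp background the difference was −1.22.

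Of the 9 other IAP genes, relatives of Xiap, 6 were tested and 5 of them were lower by estimate (2 with the percentile of all probes or the E1A centring). The genotypes were apart and lower for 3, where 20.8% of all tested probes were. Among those well above background on all 6 arrays, Naip2, which detects bacterial proteins for an inflammasome, was furthest from the median probe. It read −3.06, −2.67 and −3.76 against −4.02, −4.04 and −4.89. The log2 difference was −1.15 (SE 0.36, adjusted p = 0.162 by limma), or −0.64 with normexp background. Birc3, named after its value was seen, lay further at −2.48 and was among the 3 apart and lower. It cleared the background on the controls alone, so the filter favoured a lower value. The 5 mitochondrial factors and IAP antagonists were all tested and had a median difference of 0.08. Xaf1, an antagonist of Xiap, was furthest from the median probe at 0.15 (SE 0.57), and its controls alone spanned −3.22 to −1.46. Its sign turned when P38α+/- replicate 3 was left out (−0.41).

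Of 7 platform adaptors and sensors 5 were tested, with a median difference of −0.04 (0.44 with the percentile of all probes). Pycard, the adaptor that brings Casp1 to inflammasomes, read −1.26, −0.92 and −2.58 against −0.81, −0.92 and −1.30, and differed by 0.58 (SE 0.44, adjusted p = 0.487 by limma), opposite in sign to Casp1. Without P38α+/- replicate 3 it differed by 0.086. Nlrp3 and Nlrc4, inflammasome sensors, were not well above background on any array. The 3 modulators of Apaf1 had a median difference of −0.05 (0.43 with the percentile of all probes), and Hspa8, a chaperone, was furthest at 0.12 (SE 0.19).

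The named gene with the profile most like each member was found by Pearson's r over the 6 arrays among 10936 probes, as a description with few arrays and many candidates. For Casp1 it was Vav1, a signalling protein of blood cells (r = 0.999), which itself differed by −1.47. The Cflar profile was closest to Timp2, an inhibitor of metalloproteinases (r = 0.994, difference −1.59). Casp9 was closest to Ap1s1, an adaptor subunit of vesicle coats (r = 0.997), Casp2 to Gcdh, a mitochondrial dehydrogenase (r = 0.994), and Casp6 to Sirt3, a mitochondrial deacetylase (r = 0.986). Casp8 was closest to Nmnat3, an enzyme of NAD synthesis (r = 0.996), Apaf1 to Nop10, of small nucleolar ribonucleoproteins (r = 0.986), and Xiap to Upf3b, of nonsense-mediated decay (r = 0.996). The highest of so many correlations over 6 arrays is near 1 for almost any profile, so these names rank likeness and carry no test.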

How the data were processed

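RNA of 6 mice was measured on 1 array each, and every array was assigned to its genotype and replicate number from its sample label. The authors deposited the intensity of every spot as Agilent Feature Extraction 10.7.3.1 wrote it, background-subtracted within the array and not normalized between arrays. A table of normalized intensities that the authors also deposited is on a linear scale, with column medians of 8.481, 8.482, 8.483, 8.496, 8.484 and 8.483. Its steps are not given in the sources used here, and it served as an alternative after log2 transformation. Its column for P38α-/- replicate 2 followed the scanner signal of that array less closely (Spearman's rho 0.898) than the other 5 columns followed theirs (1.00). Probe positions and names are those of the array files (mm9).

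Control spots and outlier flags were left out, and the mean was taken where a probe had several spots. None was saturated. Processed signals were log2 transformed, and the array's 75th percentile was subtracted, taken over probes well above background on all 6 arrays. A probe counted as well above background where no more of its unflagged spots failed than passed. Two-sided moderated tests came from limma 3.58.1 (lmFit, eBayes; R 4.3.3). They were adjusted over 18785 probes by Benjamini-Hochberg and were tested on simulated data. Probes passed at an adjusted p up to 0.05 and a change of 2-fold or more. Partner ratios were tested by exact permutation in Python 3.11.15. Alternatives were other scalings (quantile, percentile of all probes, E1A spiked control), normexp (offset 50), the authors' table, other filters on dim probes, blocking on replicate number or slide, omission of 1 array at a time, the methods' t-test and other fold limits. Replicates are separate mice, and 3 arrays per genotype limit the precision.

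Replicate numbers were taken as pairs only in the differences between arrays of the same number and in the block. Arrays of 1 number deviated together from their genotype means (r = 0.54, 0.31 and 0.42, against −0.48 to 0.18 across numbers), and the series text describes the mice as pairs. Leaving the number out of the main comparison followed the methods' unpaired test, and the exact test of the partner ratios left it out too. P38α-/- replicate 3 was alone on its slide.

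The members and gene lists were chosen with earlier results of these data known. Named genes were all members, Mapk14, the gene furthest from the median probe in each pathway list among those well above background on all 6 arrays, any gene past the threshold, and the gene most like each member. A marker gene of 1 list is not reported here.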

Additional observations from a re-analysis of the deposited data

How the results depend on the processing

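No member probe passed under any alternative run (the smallest adjusted p by limma was 0.0522, for Cflar probe 1 without P38α+/- replicate 3). Casp1, Casp2, Casp6, Casp9, Apaf1, the 3 tested Cflar probes and the 3 partner ratios kept their direction wherever a value could be had, but not their size: Casp1 ran from −1.84 to −0.61 and Apaf1 from −0.80 to −0.070. With the replicate number as a block, 64 probes of the whole array passed against 28 without it, and the block changed no call on a member. Leaving out 1 array gave 0 to 323 passing probes over the whole array, 323 of them without P38α+/- replicate 3, and the percentile of all probes gave 809, of which 470 were higher, against 21 of 28. That percentile moved the median of all tested probes from −0.16 to 0.32.

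Member probes apart and higher numbered 2 under both the percentile of all probes and quantile normalization and 0 with centring on the spike-in spots, against 1. Those apart and lower numbered 1 with the percentile of all probes, with quantile normalization and with the authors' normalized values, 2 with normexp background and 0 with the spike-in spots, against 4. With 1 array left out the counts ran from 1 to 2 higher and from 3 to 6 lower. The shares of all tested probes are given for the main scaling alone. These counts therefore have no background beside them and are not read as results about the members. Casp8 turned to 0.31, 0.012 and 0.17 with the percentile of all probes, quantile normalization and the spike-in spots, and Xiap to 0.053 with the first of these. The dimmer Mapk14 probe was −0.14 with the slide as a block and ran from −0.30 to 0.51 with 1 array left out, and Xaf1 ran from −0.41 to 0.56 and was −0.11 as a difference of medians, the fold that the methods set beside their t-test. The cause of these changes was not tested. But for the scaling, a slide block amounts to leaving out P38α-/- replicate 3. The blocks, the filters on dim probes and the fold limits give the partner ratios no value of their own, so these were not rerun for them. Signal over background limits Cflar probes 2 to 4 most.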
